A study of Mus musculus with 6 samples.

Results

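Chemokine ligands and receptors were described in bulk RNA from the dorsal skin of tight skin (TSK) and wild-type (WT) mice. A name pattern for CC, CXC, C and CX3C chemokines, their receptors and the atypical receptors Ackr2 to Ackr4 matched 58 protein-coding genes, among the 55291 genes of the count table. Of these, 43 had a count above 0 in all 6 libraries and form the set described here, with 28 ligands and 15 receptors. The study compared 3 TSK with 3 WT littermates of the C57BL/6 strain, with 1 library of total RNA per mouse. Their age was 6 to 8 weeks in the labels and 8 weeks in the study's methods. The TSK allele is an inherited duplication of part of Fbn1, which encodes the microfibril protein fibrillin 1. It is lethal when homozygous, so the mutants are heterozygous in every cell, and no mouse was given a treatment. The labels give the mice as female, whereas the study's methods give males. The Y-linked gene Ddx3y was counted at 56.7 to 72.8 CPM (counts scaled to 1000000 per library) over the 6 libraries, and Xist at 2.57 to 4.58 CPM. Y-linked RNA in every library goes with the males of the methods and not with the labels.

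Chemokines are small secreted proteins that guide the movement of cells, above all of leukocytes, along gradients bound to matrix and endothelium. Most act on receptors that signal through inhibitory G proteins. The atypical receptors bind chemokines without that signal and remove them from the tissue. In skin, fibroblasts, endothelium, keratinocytes and resident macrophages are all known sources of chemokines.

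The families are named after the spacing of the first cysteines of the mature protein, and the coding sequence around those cysteines is shown for 1 gene of each of 3 families, because Cxcl12 and Ccl24 were called between the groups and Cx3cl1 is the ligand of Cx3cr1, the gene with the lowest unadjusted p among the falls. The sequences were read from the GRCm38 genome with the GENCODE annotation, lie in exon 2 of each gene, and are given 5′ to 3′ on the coding strand. Capitals mark the cysteine codons. Cxcl12 (chr6:117171496-117171528, plus strand) has 1 codon between them, Ccl24 (chr5:135572653-135572682, minus strand) has 0, and Cx3cl1 (chr8:94778039-94778077, plus strand) has 3.
Cxcl12: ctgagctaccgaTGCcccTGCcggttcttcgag
Ccl24: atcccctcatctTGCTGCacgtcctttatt
Cx3cl1: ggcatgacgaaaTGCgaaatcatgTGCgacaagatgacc

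Libraries held 17561453 to 19219814 counts, and the groups overlapped in depth. Fbn1 itself held 267, 289 and 262 CPM in the WT libraries, against 1538, 2284 and 2007 CPM in the TSK libraries (log2 fold change 2.54, adjusted p = 0.00327, edgeR quasi-likelihood test). Defining markers of skin were present in all libraries, with a summed level of 3870 to 7715 CPM for 6 basal keratinocyte genes and 6410 to 47922 CPM for 10 fibroblast genes. Genes of adult skeletal muscle were high too, at 173475 to 252625 CPM in WT and 149371 to 171297 CPM in TSK. The TMM scaling used by edgeR, which limits the pull of a few abundant genes, gave factors of 0.823 to 1.03 in WT and 1.06 to 1.13 in TSK. A fold change given below is on that scale, as TSK minus WT, whereas levels are the deposited CPM unless TMM is named. In whole skin, fewer cells of a type and less RNA per cell cannot be told apart.

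A few genes held a large share of the chemokine transcripts. Cxcl12, the ligand of CXCR4 and ACKR3, held 23.7% of the summed CPM of the 43 genes over the 6 libraries, from 13.9% (WT 1) to 22.2% in WT and from 20.9% to 34.5% (TSK 2) in TSK. In WT 1 it was close to Ccl6, at 13.4%. Together with Ccl6, a macrophage ligand of CCR1, Cxcl14, a homeostatic chemokine of epithelium and stroma, and Ackr3, the atypical receptor for CXCL12, it held 52.8%, from 41.3% to 53.2% in WT and from 54.9% to 58.5% in TSK. At the other end, 15 of the 43 genes had a mean level below 1 CPM. The order changed when the level was divided by exon length, with Ccl6 at a mean of 19.7 CPM per kilobase over the 6 libraries, Cxcl14 at 18.0, Ccl8 at 12.1, Ccl27b at 11.7, Cxcl12 at 10 and Ackr3 at 9.65. The place of Ccl8 rested on TSK 3, at 39.5 CPM per kilobase, and without that library its mean was 6.67, below those of Cxcl12 (9.53) and Ackr3 (8.41). In the plot of level per exon length, the libraries of neighbouring genes overlap over most of the list, so the order of neighbours is not resolved beyond the spread between mice.

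**Figure D1:**
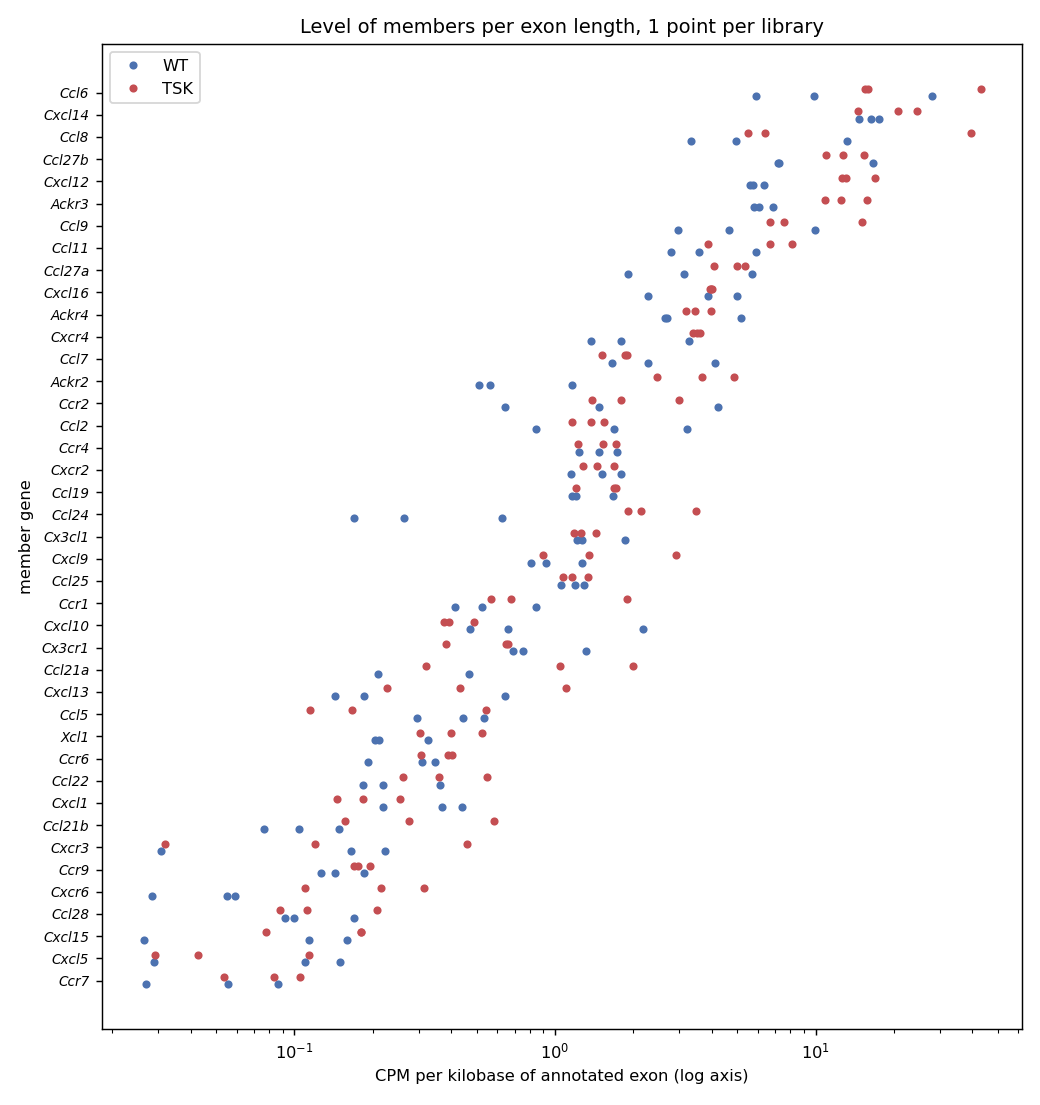
Level of 41 chemokine system genes with an annotated exon length, as CPM per kilobase of exon (log axis), with 1 point for each WT (blue) and TSK (red) library. Genes are ordered by their mean. Ccl6, Cxcl14 and Ccl8 are at the top, Ccl8 through TSK 3 alone, and Ccl24, Cxcl12, Ackr2 and Ackr3 are genes whose red points all lie to the right of the blue ones. The value of Ccl21a in WT 3, which was close to 0, is left out.

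Of the 43 genes, 30 passed the filter on low counts and were tested. Cxcl12, Ackr2 and Ccl24 were higher in TSK skin at an adjusted p below 0.05 (edgeR, Benjamini-Hochberg over 19971 genes), and none of the 30 was called lower in this test. Of all genes tested 3.39% were called, 2.71% as rises and 0.681% as falls. Ccl24 passed the filter only through its TSK libraries, where it was high, so the count of 3 is not support for a share above that of all genes. DESeq2 called these and Ackr3, 4 in all, beside 7.48% of all genes. An unadjusted p below 0.05 in edgeR was found for 7 (Cxcl12, Ackr2, Ccl24, Ackr3, Ccl7, Cx3cr1 and Cxcl10), beside 20% of all genes. The median log2 fold change of the 30 was 0.06, beside -0.03 for all genes tested. At the stricter thresholds of the study (adjusted p below 0.01 and a fold above 2.5), 0 of the 30 passed in edgeR, beside 0.29% of all genes, and 2 (Ackr2 and Ccl24) passed in DESeq2, beside 1.82%.

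**Figure D2:**
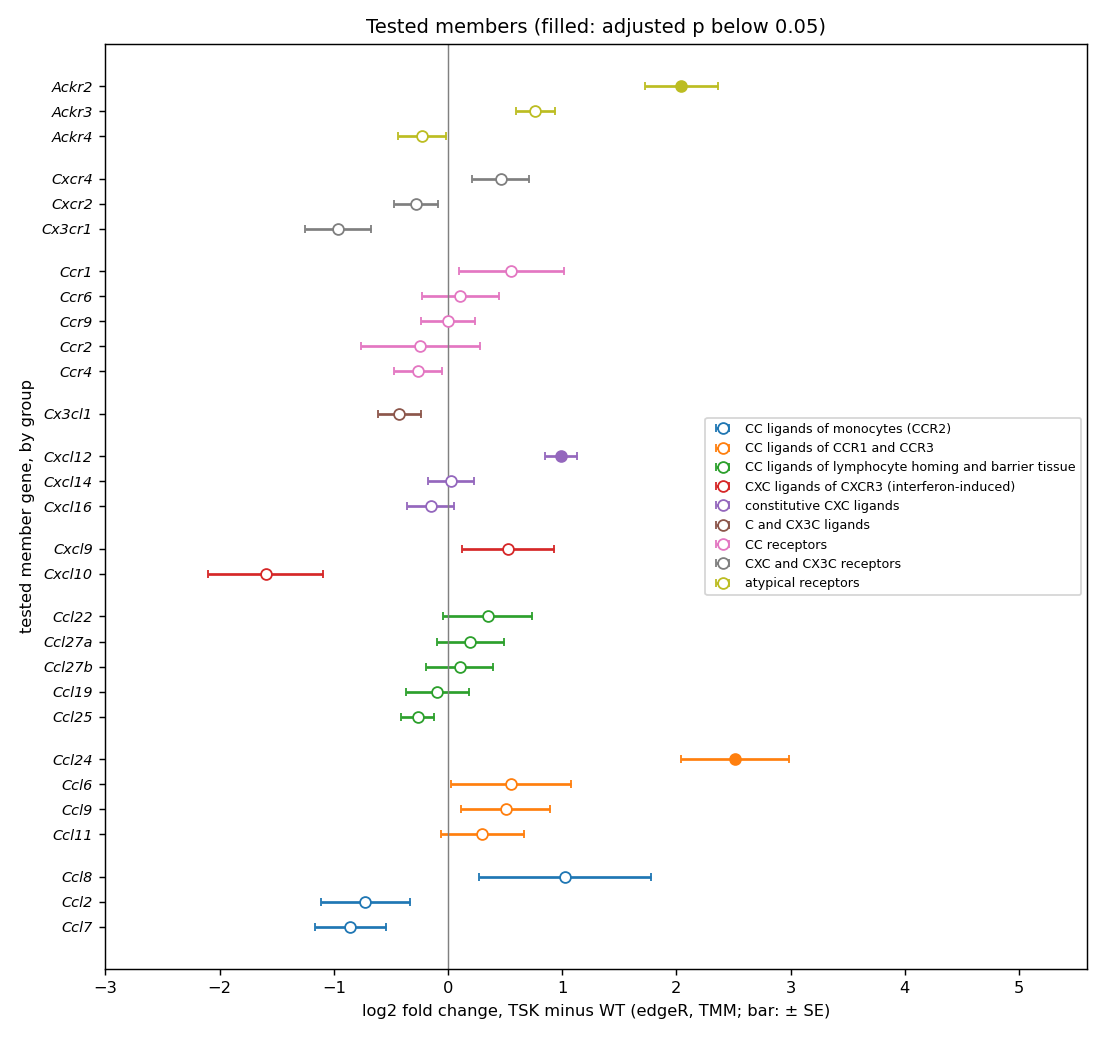
Log2 fold change (TSK minus WT, edgeR with TMM) of 29 of the 30 tested chemokine system genes, with bars of 1 standard error and colours by role. Filled points are the 3 genes with an adjusted p below 0.05, Ccl24 at 2.51, Ackr2 at 2.04 and Cxcl12 at 0.99, and open points are other tested genes, from -1.60 for Cxcl10 to 1.02 for Ccl8.

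Cxcl12 is made by fibroblasts and endothelium and retains CXCR4-bearing leukocytes and progenitors in tissue. In order of library number, Cxcl12 was counted at 51.9, 45.6 and 47.0 CPM in WT and at 107, 138 and 103 CPM in TSK, and the values of other genes follow the same order. Every TSK library lay above every WT library, and the lowest TSK value was far outside the WT range. The means were 48.2 ± 3.32 and 116 ± 19.0 CPM (SD, n = 3), a ratio of 2.41 on deposited CPM. On the TMM scale the log2 fold change was 0.99 (SE 0.14, adjusted p = 0.0148 in edgeR). It stayed between 0.85 and 1.08 when any 1 library was left out, but without WT 3 the adjusted p was 0.0819. The summed level of 7 blood endothelial markers was 166, 173 and 151 CPM in WT and 307, 430 and 272 CPM in TSK. That of 10 fibroblast markers was 6410, 8612 and 9712 CPM in WT and 21083, 20717 and 47922 CPM in TSK. The part of these cells in the difference in Cxcl12 was not tested.

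The receptors of CXCL12 were not called in the main test. Ackr3, which takes up CXCL12 and so shapes its gradients, was counted at 20.4, 23.0 and 19.5 CPM in WT and at 36.2, 41.7 and 53.0 CPM in TSK. The groups did not overlap, but the log2 fold change of 0.76 (SE 0.17) missed the threshold at an adjusted p of 0.0522 in edgeR. The gene was called at 0.00346 in DESeq2 and at 0.0453 in edgeR with the size factors of DESeq2. Cxcr4, the signalling receptor, was counted at 5.92, 2.49 and 3.24 CPM in WT and at 6.48, 6.14 and 6.36 CPM in TSK. WT 1 was near the TSK libraries, and the log2 fold change was 0.46 (SE 0.25, adjusted p = 0.349 in edgeR).

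The atypical receptor Ackr2 takes up and degrades many inflammatory CC chemokines and is known from lymphatic endothelium. It was counted at 3.64, 1.76 and 1.59 CPM in WT and at 7.70, 11.5 and 15.3 CPM in TSK, with no overlap between the groups. The mean rose from 2.33 ± 1.14 to 11.5 ± 3.78 CPM (SD, n = 3), and the log2 fold change was 2.04 (SE 0.32, adjusted p = 0.0171 in edgeR). Without WT 2 the adjusted p was 0.0520, and without WT 3 it was 0.0831. The summed level of 5 lymphatic endothelial markers (Lyve1, Prox1, Flt4, Reln and Mmrn1, all counted in every library) was 24.1 to 28.9 CPM in WT and 45.6 to 126 CPM in TSK. The list was uneven, with log2 fold changes from 0.12 to 2.22 over the 4 tested, of which 1 was called in edgeR, beside 3.39% of all genes. The part of these cells in the difference in Ackr2 was not tested.

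Ackr4, the third atypical receptor of the set, removes the homing chemokines CCL19, CCL21 and CCL25. It was counted at 27.8, 14.3 and 14.5 CPM in WT and at 21.3, 17.2 and 18.6 CPM in TSK. The TSK libraries lay inside the WT range, and the log2 fold change was -0.23 (SE 0.21, adjusted p = 0.597 in edgeR). Its sign turned to 0.01 with scaling by library size alone and to 0.07 without WT 1. Exons of Ackr4 overlap those of Acad11 on the opposite strand. Of the 3 atypical receptors, 1 (Ackr2) was called in edgeR and 2 (Ackr2 and Ackr3) in DESeq2, beside 3.39% and 7.48% of all genes.

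A further atypical receptor lies outside the name pattern. Ackr1, which binds chemokines on venular endothelium and red cells, was counted at 2.38, 3.22 and 2.07 CPM in WT and at 8.58, 8.40 and 14.7 CPM in TSK, with no overlap. Its log2 fold change was 1.73 (SE 0.30, adjusted p = 0.0223 in edgeR, and 0.101 without WT 3), and 20.4% of its windows of 50 bases also occur in Cadm3, whose exons overlap it. The 7 blood endothelial markers given beside Cxcl12 were also higher in sum in each TSK library than in each WT library. Among the TSK libraries their sum was lowest in TSK 3, where Ackr1 was highest. The part of these cells in the difference in Ackr1 was not tested.

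Ccl24, or eotaxin 2, attracts eosinophils through CCR3 and is known from alternatively activated macrophages. It rested on few counts, 6, 15 and 4 in WT and 45, 53 and 85 in TSK. The levels were 0.342, 0.810 and 0.220 CPM in WT and 2.46, 2.76 and 4.51 CPM in TSK, so that each TSK library was above each WT library. The log2 fold change of 2.51 (SE 0.48, adjusted p = 0.0299 in edgeR) was the largest of the 30 in this fit, whereas limma-trend on log2(CPM + 1) gave 1.53 for Ccl24 and 1.91 for Ackr2. It lay between 2.20 and 3.30 when 1 library was left out, and the adjusted p passed 0.05 without WT 3 (0.117), TSK 2 (0.0519) or TSK 3 (0.0742). The 10 macrophage markers summed to 212 to 296 CPM in WT and 371 to 1053 CPM in TSK. In edgeR 0 of them were called, beside 3.39% of all genes, and their log2 fold changes ran from -1.05 to 1.44. The part of these cells in the difference in Ccl24 was not tested. Ccr3, the receptor of CCL24, had 5, 1 and 2 counts in WT and 2, 0 and 6 in TSK, and so fell outside the 43 genes.

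**Figure D3:**
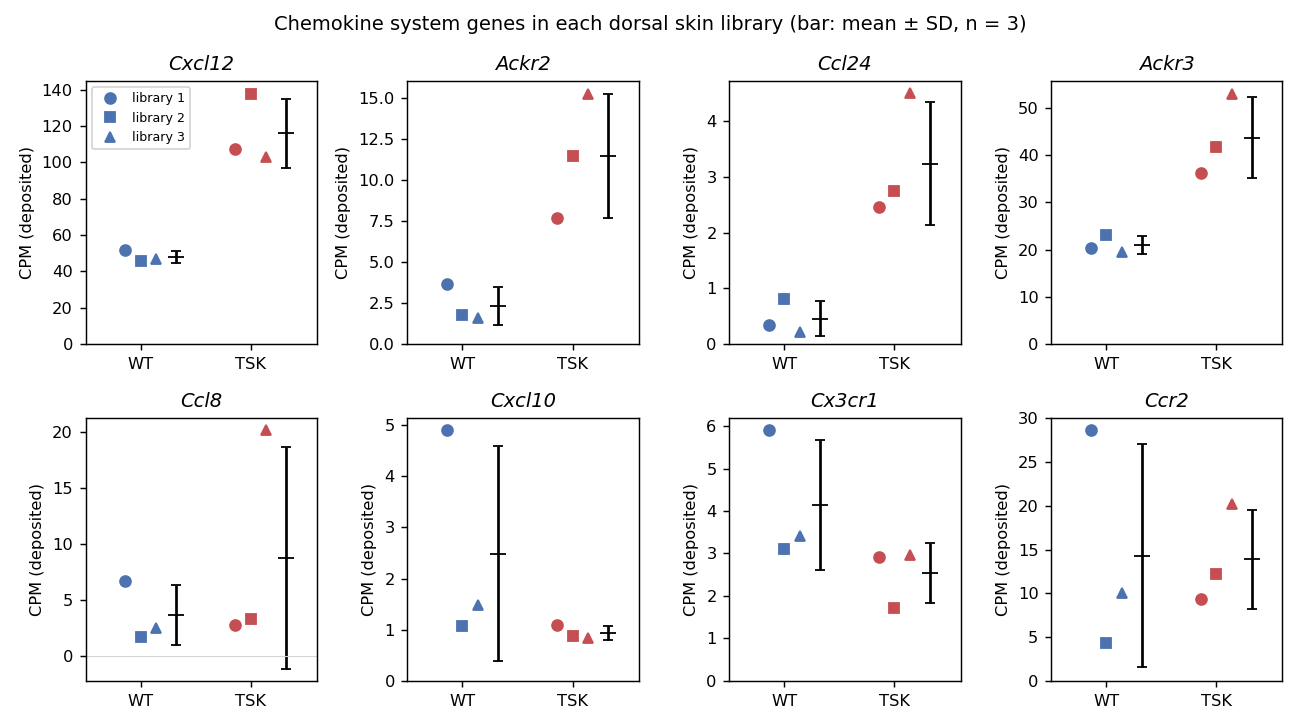
Deposited CPM of 8 chemokine system genes in each WT (blue) and TSK (red) library, with the mean and SD (n = 3) beside the points. The symbols number the libraries, and the labels give no pairing of the mice. Cxcl12, Ackr2, Ccl24 and Ackr3 do not overlap between the groups; Ccl8 is set by TSK 3 at 20.2 CPM, and Cxcl10 and Ccr2 are highest in WT 1 at 4.90 and 28.6 CPM.

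The promoters of Cxcl12 and Ackr2, which were called and have an entry in the RefSeq table used (GRCm38.p6), are shown because they differ in their letters. The 250 bases before the start site are given 5′ to 3′ on the coding strand, at chr6:117168285-117168534 (plus strand) for Cxcl12 and chr9:121898105-121898354 (plus strand) for Ackr2. Capitals mark matches on either strand to GGGCGG (a GC box) in Cxcl12, and to CAGACA (a SMAD box) or the NF-kappa-B consensus in Ackr2.
Cxcl12: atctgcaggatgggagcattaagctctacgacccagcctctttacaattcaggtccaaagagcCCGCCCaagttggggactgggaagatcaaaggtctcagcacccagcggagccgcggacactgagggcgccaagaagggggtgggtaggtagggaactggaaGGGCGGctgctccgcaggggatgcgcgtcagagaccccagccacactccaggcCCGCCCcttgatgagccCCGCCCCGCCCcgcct
Ackr2: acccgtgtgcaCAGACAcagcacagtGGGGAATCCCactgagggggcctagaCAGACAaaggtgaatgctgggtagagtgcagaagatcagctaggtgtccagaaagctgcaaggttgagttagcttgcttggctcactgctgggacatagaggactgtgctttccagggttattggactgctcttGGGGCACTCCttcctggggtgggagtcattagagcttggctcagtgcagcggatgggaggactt

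The Cxcl12 promoter was 64.4% GC and held 5 GC boxes, the last pair of which share 1 base. The Ackr2 promoter was 55.2% GC and held 2 places with the NF-kappa-B consensus and 2 with CAGACA. The median over all promoters in the table was 52.4% GC. Of 32851 promoters of the same length, 32.7% held GGGCGG, 7.25% the NF-kappa-B consensus and 17.1% CAGACA. These letters are a description of the sequence and not sites of binding.

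None of the 30 was called lower in the edgeR test, and without its low-count filter Cxcl10 was (adjusted p = 0.0474), beside 0.997% of all genes. Several were lower in each TSK library once TMM scaling was applied. On TMM-scaled CPM, 4 of the 30 genes were higher in every TSK library (Cxcl12, Ackr2, Ccl24 and Ackr3) and 5 were lower (Cx3cr1, Cxcl10, Ccl7, Cx3cl1 and Ccl25), beside 24.7% of all genes with groups that did not overlap, 14.1% higher and 10.6% lower. On deposited CPM it was 5 higher (these 4 and Cxcr4) and 1 lower (Cx3cr1), beside 29.1% and 2.58% of all genes and 31.6% in both directions. Cx3cr1 kept its place among the lower genes on both scales.

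The fractalkine axis pairs Cx3cl1, a chemokine tethered to the cell membrane, with Cx3cr1, the receptor of patrolling monocytes and resident macrophages. Cx3cr1 was counted at 5.90, 3.12 and 3.41 CPM in WT and at 2.93, 1.72 and 2.97 CPM in TSK. The log2 fold change of -0.96 (SE 0.29) did not pass in edgeR, at an adjusted p of 0.110, nor in DESeq2, at 0.0644. The ligand Cx3cl1 was counted at 7.29, 4.79 and 5.0 CPM in WT and at 5.66, 4.63 and 4.93 CPM in TSK, which overlap. Its log2 fold change was -0.43 (SE 0.19, adjusted p = 0.255 in edgeR).

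Cxcl10 is an interferon-induced ligand of CXCR3 on activated T cells. It was counted at 4.90, 1.06 and 1.48 CPM in WT and at 1.10, 0.884 and 0.848 CPM in TSK, and the high value was that of WT 1. The log2 fold change was -1.60 (SE 0.51, adjusted p = 0.126 in edgeR), and -0.76 without WT 1. With no filter on low counts the adjusted p was 0.0474. The 8 interferon response markers were also highest in WT 1, at a sum of 161 CPM, beside 50.1 and 68.8 CPM in WT 2 and WT 3 and 45.0 to 67.4 CPM in TSK, and their part in the values of Cxcl10 was not tested. Cxcl9, another CXCR3 ligand, had a log2 fold change of 0.52 (SE 0.40, adjusted p = 0.523 in edgeR), and Cxcr3 had too few counts for a test.

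The monocyte ligands of CCR2 gave no call, and single libraries weighed on their values. Ccl7 was counted at 3.30, 1.33 and 1.81 CPM in WT and at 1.21, 1.51 and 1.48 CPM in TSK (log2 fold change -0.86, SE 0.31, adjusted p = 0.173 in edgeR). Ccl2, its neighbour in the same cluster of genes, gave -0.72 (SE 0.39, adjusted p = 0.345 in edgeR). Ccl8, which in mice also acts on CCR8, was counted at 6.72, 1.70 and 2.53 CPM in WT and at 2.80, 3.28 and 20.2 CPM in TSK. TSK 3 alone set its log2 fold change of 1.02 (SE 0.75, adjusted p = 0.50 in edgeR), which was -0.46 without that library. Of the 3 tested members of this group, 0 were called in edgeR or DESeq2, and 1 (Ccl7) had an unadjusted p below 0.05 in edgeR, beside 3.39%, 7.48% and 20% of all genes.

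The CCR1 ligands Ccl6 and Ccl9 gave no call either. Ccl6 was counted at 50.1, 10.6 and 17.7 CPM in WT and at 28.4, 27.8 and 77.2 CPM in TSK, and Ccl9 at 30.4, 9.04 and 14.1 CPM in WT and at 20.3, 23.0 and 45.8 CPM in TSK. Both were highest in TSK 3 and next highest in WT 1, so that the groups overlapped. Across the 6 libraries Ccl6 spanned 7.25-fold and Ccl9 5.07-fold, whereas the ratio of Ccl6 to Ccl9 ranged only from 1.18 to 1.68. Their log2 fold changes were 0.55 (SE 0.52) and 0.50 (SE 0.39), with adjusted p of 0.611 and 0.527 in edgeR, and single libraries set them, at -0.08 and 0.07 without TSK 3 and at 1.31 and 1.02 without WT 1. Ccl11, or eotaxin 1, gave 0.30 (SE 0.36, adjusted p = 0.702 in edgeR).

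Among the CC receptors, Ccr2, by which monocytes leave the marrow and enter tissue, was counted at 28.6, 4.34 and 9.99 CPM in WT and at 9.36, 12.2 and 20.2 CPM in TSK. The groups overlapped, and the log2 fold change was -0.24 (SE 0.52, adjusted p = 0.844 in edgeR). WT 1 was its highest library. The macrophage marker sum of WT 1, at 296 CPM, was the highest of the WT libraries and below that of every TSK library, and the part of these cells in the values of Ccr2 was not tested. Ccr1, a receptor of CCL6 and CCL9, gave 0.55 (SE 0.46, adjusted p = 0.556 in edgeR) and was highest in TSK 3 at 5.35 CPM. Ccr4, Ccr6 and Ccr9 gave -0.26, 0.11 and 0.0023 (adjusted p = 0.536, 0.899 and 0.997 in edgeR). No CC receptor was called in edgeR or DESeq2, and 0 had an unadjusted p below 0.05 in edgeR, beside 3.39%, 7.48% and 20% of all genes.

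**Figure D4:**
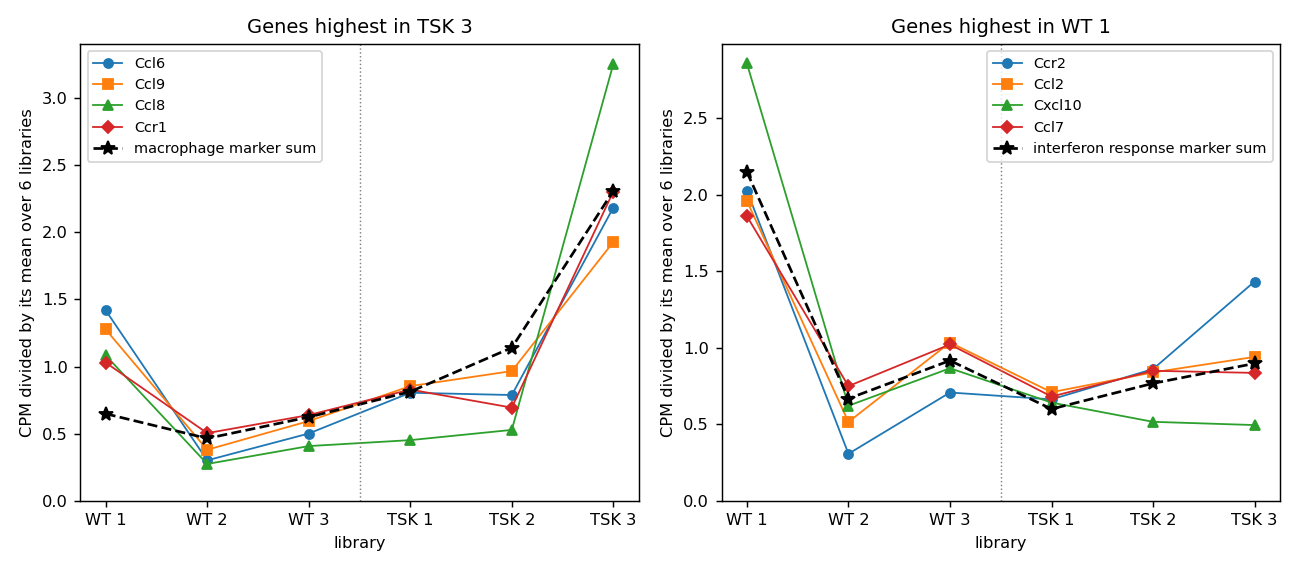
Level of 4 genes highest in TSK 3 (left) and 4 genes highest in WT 1 (right), each as CPM divided by its mean over the 6 libraries, with the sum of a marker list as a dashed black line. On the left, Ccl8 and the macrophage markers peak in TSK 3, at 20.2 and 1053 CPM. On the right, Cxcl10 and the interferon response markers peak in WT 1, at 4.90 and 161 CPM. Marker sums not drawn here peak in the same libraries too. Among them are fibroblast (47922 CPM) and lymphatic endothelial (126 CPM) in TSK 3, and basal keratinocyte (7715 CPM) in WT 1.

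Single libraries held many of the highest and lowest values of the set. Of the 30 tested genes, 13 had their highest deposited CPM in WT 1 and 11 in TSK 3, whereas 19 had their lowest in WT 2. WT 2 also had the lowest TMM factor, 0.823, and the most skeletal muscle transcripts, and their part in these counts was not tested. On the TMM scale, 14 were highest in WT 1, 8 highest in TSK 3 and 12 lowest in WT 2. Such counts were not made over all genes, so they do not show a trait particular to this set. The median coefficient of variation on the TMM scale was 28.6% in WT and 18.3% in TSK. The sum over the 43 genes was 374, 205 and 233 CPM in WT and 372, 400 and 494 CPM in TSK, so that WT 1 held as much as TSK 1.

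Chemokines of lymphocyte homing and barrier tissue gave no call. Of 5 tested members (Ccl19, Ccl22, Ccl25, Ccl27a and Ccl27b), log2 fold changes ran from -0.26 to 0.35, and 0 were called in edgeR or DESeq2, with 0 at an unadjusted p below 0.05 in edgeR, beside 3.39%, 7.48% and 20% of all genes. Ccl25, a ligand of CCR9, was counted at 9.62, 7.83 and 8.91 CPM in WT and at 8.00, 8.65 and 9.95 CPM in TSK, and its log2 fold change of -0.26 (SE 0.14, adjusted p = 0.354 in edgeR) turned to 0.01 with scaling by library size alone. Ccl19 shares 52.0% of its windows of 50 bases with Gm2564 and other copies, so its value is uncertain. Ccl27a and Ccl27b encode CCL27, the keratinocyte ligand of CCR10, and share 45.0% and 98.1% of their windows with other genes. Their separate values are therefore uncertain too, and their summed counts were 363, 143 and 191 in WT and 350, 332 and 270 in TSK (log2 fold change 0.16, SE 0.28, adjusted p = 0.796 in edgeR).

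The Ccl21 genes, which encode the ligand that leads dendritic cells and T cells through CCR7 into lymphatics, are near-identical copies too. Ccl21a shared 71.6% and Ccl21b 100% of its windows with other genes, Ccl21d was not in the annotation used for lengths, and the count of Ccl21a in WT 3 was 7.29e-16, an estimated count close to 0. None of the 3 passed the filter. Summed with 2 copies outside the name pattern, Gm10591 and Gm13304, the family had 10, 13 and 10 counts in WT and 27, 25 and 55 in TSK. The groups did not overlap, and the log2 fold change of 1.35 (SE 0.40) had an adjusted p of 0.104 in edgeR. This sum was chosen after the counts had been seen.

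The other tested constitutive CXC ligands, Cxcl14 and Cxcl16, were not called. Cxcl14 was counted at 31.9, 29.9 and 26.8 CPM in WT and at 44.7, 26.6 and 37.8 CPM in TSK, which overlap, with a log2 fold change of 0.03 (SE 0.20, adjusted p = 0.963 in edgeR). Cxcl16, a membrane-bound ligand of CXCR6, gave -0.15 (SE 0.21, adjusted p = 0.738 in edgeR), and 16.9% of its windows also occur in Zmynd15 on the opposite strand.

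The 13 genes that were counted in all libraries but not tested had mean levels of 0.0850 to 0.620 CPM. They were Ccl5, Ccl21a, Ccl21b, Ccl21d, Ccl28, Cxcl1, Cxcl5, Cxcl13, Cxcl15, Xcl1, Ccr7, Cxcr3 and Cxcr6. Without the filter, 0 of the 13 were called in edgeR (lowest adjusted p 0.229), beside 3.98% of all genes in that fit. An unadjusted p below 0.05 was found for 3 (Ccl21a, Cxcl1 and Cxcr6), beside 14.6%. DESeq2 gave 9 of them no adjusted p and called 0 of the others, beside 7.48% of all genes. Ccr7, at 3, 1 and 2 counts in WT and 3, 4 and 2 in TSK, was among the genes just inside the rule, and Ccr3, given above, among those just outside it. A further 15 matching genes had no count in at least 1 library, and Ccl26 and Cxcl17 had none in any.

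Genes that work with chemokines but fall outside the name pattern were counted in 4 lists. Of 54 tested, 4 were called higher and 0 lower in edgeR, beside 2.71% and 0.681% of all genes, and 18 had an unadjusted p below 0.05, beside 20%. The median log2 fold change was 0.22. DESeq2 called 12, of which 10 were higher and 2 lower, beside 5.5% and 1.98% of all genes. The genes called in edgeR were Dpp4, Rarres2, Grk5 and Ackr1.

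Dpp4, a protease that trims CXCL12 and other chemokines at their amino end and also marks a class of skin fibroblasts, was counted at 7.01, 7.13 and 6.32 CPM in WT and at 31.2, 42.8 and 54.3 CPM in TSK. The groups were far apart, with a log2 fold change of 2.36 (SE 0.20, adjusted p = 0.00327 in edgeR). Rarres2, the gene for the chemoattractant chemerin, was counted at 7.18, 5.0 and 3.63 CPM in WT and at 13.5, 21.2 and 27.8 CPM in TSK (log2 fold change 1.71, SE 0.28, adjusted p = 0.0193 in edgeR). Grk5, a kinase that desensitises G protein-coupled receptors, gave 0.85 (SE 0.14, adjusted p = 0.0202 in edgeR). Rarres2 lost its call without WT 2 (0.0521) or WT 3 (0.0833), and Grk5 without WT 2 (0.0676), WT 3 (0.105), TSK 2 (0.0558) or TSK 3 (0.0515). The 10 fibroblast markers given beside Cxcl12 include Dpp4, and the sum of 7 adipocyte markers was 144 to 208 CPM in WT and 490 to 2720 CPM in TSK. The part of these cells in the differences in Dpp4, Rarres2 and Grk5 was not tested.

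Pf4, a chemokine of platelets and macrophages also called CXCL4, was counted at 5.75, 2.24 and 4.84 CPM in WT and at 7.86, 9.47 and 15.9 CPM in TSK. The groups did not overlap, but the log2 fold change of 1.12 (SE 0.33) did not pass in edgeR, at an adjusted p of 0.105, whereas DESeq2 gave 0.0216. Xcr1, the receptor of cross-presenting dendritic cells, gave 0.20 (SE 0.28, adjusted p = 0.746 in edgeR), Ccrl2, a chemerin-binding receptor, gave -0.09 (SE 0.33, adjusted p = 0.913 in edgeR), and Ppbp had too few counts for a test. Of 14 tested chemokine inducers and NF-kB regulators 0 were called in edgeR, with 2 at an unadjusted p below 0.05 (beside 20% of all genes), Il1a at a log2 fold change of 1.06 (adjusted p = 0.127 in edgeR) and Nfkbiz at -0.58. DESeq2 called 2 lower, beside 1.98% of all genes, and these genes were named after their values were seen. They were Nfkbiz, a nuclear regulator of NF-kB (adjusted p = 0.0625 in edgeR and 0.0244 in DESeq2), and the cytokine Il1b (0.000381 in DESeq2), which the low-count filter left out of edgeR.

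**Figure D5:**
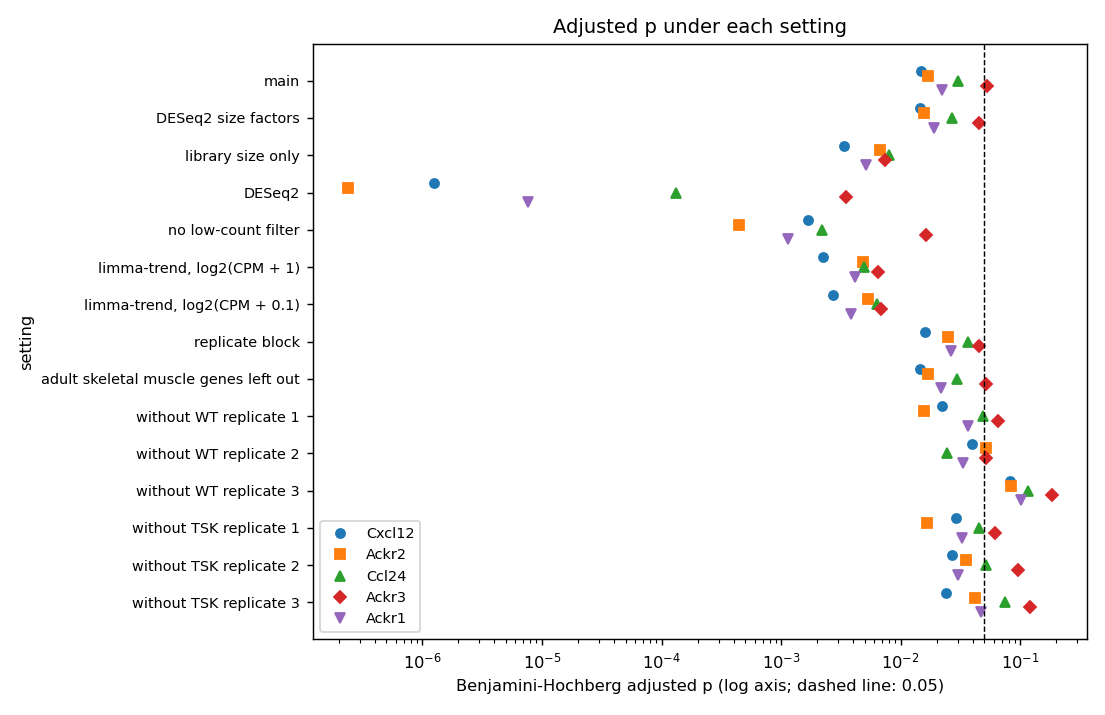
Adjusted p (log axis) of Cxcl12, Ackr2, Ccl24, Ackr3 and Ackr1 under the edgeR test and each alternative, with a dashed line at 0.05. Without WT 3 all 5 genes lie to the right of the line, Cxcl12 at 0.0819 and Ackr1 at 0.101, and under DESeq2 all lie to its left. Ackr3 moves across the line between settings.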

How the data were processed

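Libraries of ribosome-depleted, stranded total RNA were prepared by the authors and read as single-end reads of 50 bases. Per the labels and the submitters' processing notes, bcl2fastq 2.19.1.403, STAR, Partek Flow 11.0 and the mm10 (GRCm38) genome were used, and the strand setting of the counting is not given in the sources used here. The authors deposited a table of estimated counts per gene, named raw although 43.3% to 45.4% of the non-zero values were whole (within 0.001), and a table of CPM. Estimated counts were rounded to whole numbers. TSK and WT were compared with edgeR 4.0.16 in R 4.3.3 (quasi-likelihood test, TMM, filterByExpr, no covariate), with Benjamini-Hochberg adjustment over 19971 genes. DESeq2 1.42.0 and limma 3.58.1 (limma-trend on deposited CPM) were alternatives, beside other scalings, no low-count filter, a replicate block, removal of muscle genes, and leaving out each library. One further alternative, the sum of gene copies outside the name pattern, was chosen after seeing the data. The test was also run on simulated counts, and no result given here rests on that run.

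The members, gene groups and marker lists were chosen with earlier results of these data known. Genes were named by rule: members past an adjusted p of 0.05, members whose TMM-scaled CPM did not overlap between the groups at a mean of at least 0.5 CPM, the 6 of highest mean CPM, the 4 greatest rises and 4 greatest falls, Fbn1, 5 chemokine genes outside the name pattern, and related genes that were called. Other genes are given as examples of their group, and were picked after their values were seen. Exon lengths, positions and shared windows of 50 bases came from GENCODE M21, and promoters from RefSeq, which held 34 of the 43 genes. One receptor gene of the set is not reported here by name, and is counted only in totals over the set. Marker list sums are sums of deposited CPM.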

Additional observations from a re-analysis of the deposited data

How the results depend on the processing

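Over all alternatives for the 23 named and tested genes, 325 of 368 values kept their direction and their side of the threshold, 17 turned direction, 13 came to pass the threshold and 13 no longer passed it. The number of chemokine genes called was 4 with the size factors of DESeq2, library size, DESeq2, limma-trend or the replicate block, 3 without muscle genes, and 5 with no filter, which added Ackr3 (higher) and Cxcl10 (lower). The share of all genes called was 3.58% with the size factors, 3.44% without muscle genes, 8.9% with library size, 7.48% in DESeq2, 9.37% and 9.31% in limma-trend and 3.98% with no filter. Leaving out 1 library gave 3 without WT 1 or TSK 1 (beside 6.13% and 2.56%), 2 without WT 2, TSK 2 or TSK 3 (1.39%, 1.86% and 1.9%) and 0 without WT 3 (0.29%). At the study thresholds it was 2 with library size, DESeq2, no filter and limma-trend with 1 and 0.1 added, beside 1.53%, 1.82%, 1.02%, 1.42% and 1.65% of all genes, and 0 to 0 with 1 library left out, beside 0.00484% to 0.224%. Related genes called were 15 with library size, 12 in DESeq2, 10 with no filter, 14 and 13 in limma-trend with 1 and 0.1 added, 7 with the replicate block (beside 3.98% of all genes), and 2 to 8 with 1 library left out (8 without WT 1, 2 without WT 2 or WT 3). The median of the tested chemokine genes was 0.32 with library size and 0.32 in limma-trend with 0.1 added, where the median of all genes was 0.25 in both, and ran from -0.10 to 0.19 with 1 library left out.

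Values that turned direction were all uncalled. With library size, limma-trend with 1 added and limma-trend with 0.1 added, Ccl25 gave 0.013, 0.011 and 0.013, Ackr4 0.015, 0.074 and 0.081, and Ccrl2 0.18, 0.098 and 0.12. Cxcl14 gave -0.0038 with the replicate block. With 1 library left out, Cxcl14 ran from -0.18 (without TSK 1) to 0.21, Ackr4 from -0.36 to 0.066 (without WT 1), Ccrl2 from -0.37 to 0.17 (without TSK 3), Ccl6 from -0.079 (without TSK 3) to 1.31, and Ccl8 from -0.46 (without TSK 3) to 1.69. The cause was not tested.

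Replicate numbers did not pair the mice, since deviations of libraries with the same number correlated at 0.011, 0.17 and -0.094. The replicate block moved Ackr3 to an adjusted p of 0.0454. Low counts limit the 13 untested genes, where a few reads can move a value. Without the filter 0 of them were called in edgeR, beside 3.98% of all genes.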

Other observations

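Cxcl2, a ligand of the neutrophil receptor CXCR2, was not among the 43 genes because it had no count in any TSK library. It had 6, 40 and 3 counts in WT 1 to 3, and was chosen here after its values were seen. With 3 counts assumed over the TSK group in place of 0, its level was 16.8-fold lower in TSK, and 4.72-fold lower without WT 2. The WT counts entered without their spread, so these values are not lower bounds. The low-count filter left it out of the main test, the adjusted p was 0.0135 in edgeR without that filter, and it was 0.000655 in DESeq2. Il1b, a cytokine that induces neutrophil chemokines, had 21, 41 and 9 counts in WT and 0, 1 and 1 in TSK, with an adjusted p of 0.00103 in edgeR without the filter and 0.000381 in DESeq2. It was singled out after its values were seen. The other listed CXCR2 ligands were low in both groups. The WT and TSK means were 0.643 and 0.364 CPM for Cxcl1, 0.179 and 0.115 CPM for Cxcl5, 0.121 and 0.218 CPM for Cxcl3, 0.212 and 0.310 CPM for Cxcl15, and 0.295 and 0.375 CPM for Ppbp. The 7 neutrophil markers summed to 3.27 to 6.61 CPM in WT and 1.68 to 4.48 CPM in TSK, with Ly6g at 0 in all libraries, and their part in the values of Cxcl2 and Il1b was not tested.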
